A study of Rattus norvegicus with 2 samples.

Results

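The genes described here are Crabp2, Aldh1a1, Aldh1a2 and Rara, which bind, make and sense retinoic acid. They were taken as every probe set that the platform annotation assigns to exactly 1 of these symbols. This gave 4 probe sets, 1 per gene, of the 15866 probe sets that are not controls. The genes were chosen with their values known, so every value given for them is a description.

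RNA came from rat sympathetic neurons, which release noradrenaline onto the heart, vessels and other organs, and was hybridised to 1 Affymetrix Rat Expression Set 230A array for each of 2 conditions. In the first, neurons were cultured with myocytes, their muscle target, and then lifted off the dish with EDTA. This step is meant to leave the more adherent flat cells behind, but fibroblast transcripts were bright in both arrays, as given below. In the second, neurons were cultured without myocytes. The labels give no strain, age or culture time. The description field of the co-culture sample names neurons grown alone, which conflicts with its title and source name, and title and source name were followed. The study asked which transcripts change when sympathetic neurons meet their target. With 1 array per condition no difference has a replicate check and none was tested. Differences are therefore between 2 arrays and cannot be assigned to the conditions.

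Retinoic acid is made from vitamin A. Retinol enters cells through the membrane receptor STRA6, is oxidised to retinal by retinol dehydrogenases, and retinal is oxidised to retinoic acid by the retinaldehyde dehydrogenases of the ALDH1A family. In the cytosol retinoic acid is bound by CRABP1 or by CRABP2, and CRABP2 carries it to the nucleus. There the retinoic acid receptors, as partners of the retinoid X receptors, switch target genes on or off, and CYP26 enzymes break the acid down. In cultures of rat sympathetic neurons, retinoic acid is known to shift the transmitter phenotype from noradrenergic towards cholinergic.

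The stretch of 250 bases before the annotated start of Crabp2 is shown because Crabp2 is the gene whose signal differed most among the 4. That of the retinol receptor gene Stra6 is shown for 1 of its probe sets. Of the 25 probe sets of other retinoid genes that were above the signal filter, it was the 1 past 2-fold, in the opposite direction. That probe set passed the filter only through the array of neurons alone, where its signal was higher. Of all 8308 probe sets above the filter, 0.818% were at least 2-fold lower in neurons from co-culture. Both come from RefSeq with build GRCr8, chr2:175714612-175714861 and chr8:67444507-67444756, each on the plus strand. Capitals mark the TATA box letters TATAAA, searched on the strand of the gene. They also mark the hexamer of retinoid receptor sites, searched on both strands in 4 spellings. The usual spelling reads AGGTCA. Of its variants, the first reads GGGTCA. The second variant reads AGTTCA, and the last one reads GGTTCA.
Crabp2: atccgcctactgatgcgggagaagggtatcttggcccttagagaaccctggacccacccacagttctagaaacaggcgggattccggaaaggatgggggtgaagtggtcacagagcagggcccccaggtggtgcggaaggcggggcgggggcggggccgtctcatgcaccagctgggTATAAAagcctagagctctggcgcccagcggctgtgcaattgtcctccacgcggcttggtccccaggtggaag
Stra6: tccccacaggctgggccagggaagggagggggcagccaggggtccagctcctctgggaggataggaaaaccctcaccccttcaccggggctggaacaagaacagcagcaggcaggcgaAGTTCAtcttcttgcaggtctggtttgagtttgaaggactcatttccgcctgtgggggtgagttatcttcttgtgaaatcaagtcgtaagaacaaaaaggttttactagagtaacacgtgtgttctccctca
The Crabp2 stretch held TATAAA, starting 73 bases before the annotated start, and none of the 4 hexamers. It also held 2 matches to GGGCGG, the core of GC boxes. The Stra6 stretch held AGTTCA, starting 132 bases before the start, and no TATAAA. Among 27457 rat promoters of the same length, TATAAA was in 8.38%, GGGCGG on either strand in 32.4%, and at least 1 of the 4 hexamers in 38.5%. The promoters of Aldh1a1 and Rara each held 1 match to GGGTCA, and that of Aldh1a2 held none of the 4. These are matches of letters and not sites of binding.

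Crabp2, the cellular retinoic acid binding protein, had an intensity of 834 in neurons from co-culture and 356 in neurons alone. Intensity is the brightness of a probe set on a linear scale, as the authors deposited it. The signal in neurons from co-culture was 2.34-fold higher, a log2 ratio of 1.23. Crabp2 lay above the array median in both conditions (175.0 in neurons from co-culture and 185.7 in neurons alone), so neither value was near the dim end of its array. Among the 8308 probe sets above the signal filter, which asks for at least the array median in 1 array, 13 had a higher ratio. Of these 8308 probe sets, 0.337% were at least 2-fold higher in neurons from co-culture and 0.818% at least 2-fold lower. The higher ones were 28 of 96 past 2-fold (29.2%). This share was 40.4% after quantile normalization, 39.5% after scaling each array to its median and 38.4% after lowess correction. It was 33% after scaling to the 2% trimmed mean, and it fell to 20.2% after scaling to the spiked controls.

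Since there were no replicates, the ratio of Crabp2 was set beside the disagreement between probe sets of the same gene. There were 749 genes with at least 2 probe sets past the filter, and over these the SD for a single probe set came to 0.28 on the log2 scale. It ran from 0.36 in the dimmest of 4 groups by signal to 0.21 in the brightest. In the group that holds Crabp2 it was 0.27, and the ratio of Crabp2 was 4.62 times this SD. This SD covers probe sets that share the same RNA and the same array, so it says nothing about the spread between cultures. Crabp2 had no other probe set to compare. Of 24 genes with a probe set at least 2-fold higher, 5 had another above the filter. In all 5 the other probe sets were higher too, in none of them were all the others at 2-fold, and the median of the others was 0.28 on the log2 scale.

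**Figure D1:**
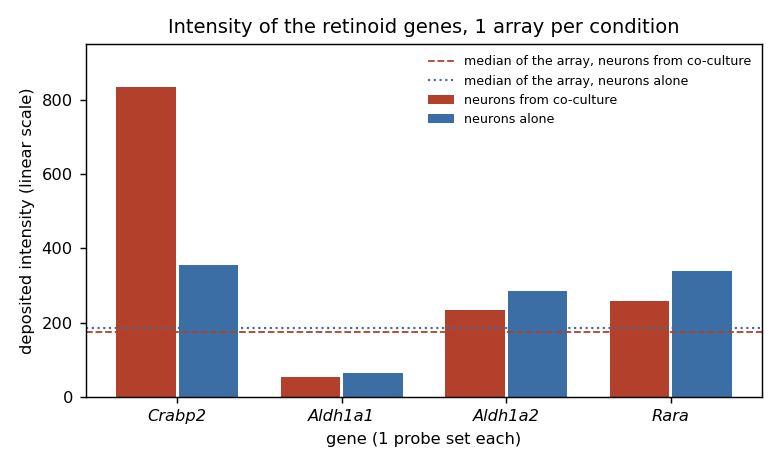
Deposited intensity (linear axis from 0) of Crabp2, Aldh1a1, Aldh1a2 and Rara in neurons from co-culture (left bar) and neurons alone (right bar), 1 array each, with no error bars since there is no replicate. Crabp2 had 834 in neurons from co-culture against 356 in neurons alone, the other genes were slightly lower in neurons from co-culture, and Aldh1a1 lay below both array medians (dashed and dotted lines).

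The genes that make retinoic acid did not share the difference of Crabp2. Aldh1a2, the main retinaldehyde dehydrogenase of the embryo, had an intensity of 234 in neurons from co-culture and 285 in neurons alone, 1.22-fold lower. Its log2 ratio of -0.28 was smaller than the SD of 1 probe set at this signal (0.36). Aldh1a1, a retinaldehyde dehydrogenase also known from dopaminergic neurons of the midbrain, had 54.0 in neurons from co-culture and 63.0 in neurons alone. Both values were under the array medians, and Aldh1a1 did not pass the filter. Its log2 ratio of -0.22 was -0.02 after quantile normalization and 0 with the floor on low values at the 40th percentile, which lies above both signals.

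The receptor of the group also ran opposite to Crabp2. Rara, retinoic acid receptor alpha, had an intensity of 258 in neurons from co-culture and 339 in neurons alone, 1.31-fold lower. The log2 ratio of -0.39 was 1.09 times the SD of 1 probe set (0.36), and 10.4% of probe sets above the filter had a lower ratio. Of the 4 genes, 1 was thus higher and 3 were lower in neurons from co-culture, and 1 of the 3 that passed the filter was past 2-fold. Over all genes above the filter, each represented by its brightest probe set, 47.3% were higher and 52.7% lower, with a median log2 ratio of -0.01.

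**Figure D2:**
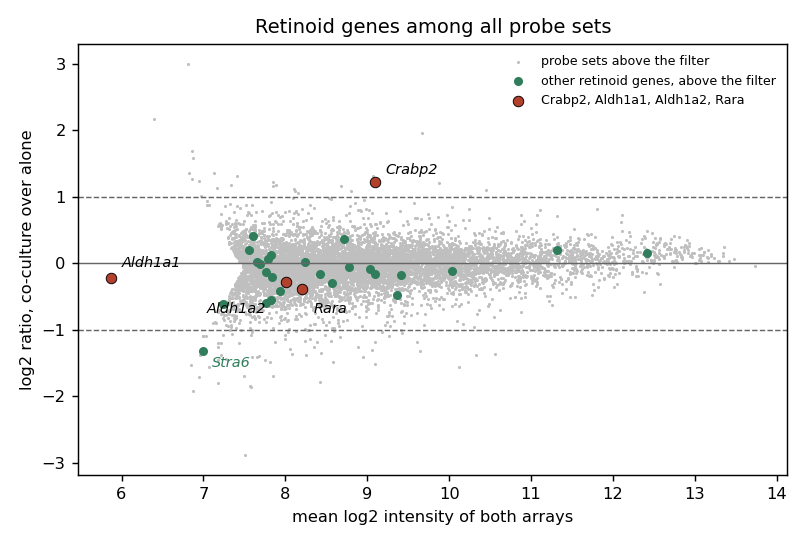
Log2 ratio of co-culture over alone (vertical axis) against the mean log2 intensity of both arrays (horizontal axis) for the 8308 probe sets above the filter (grey), the other retinoid genes (green) and Crabp2, Aldh1a1, Aldh1a2 and Rara (red, outlined). Crabp2 sits above the upper dashed line of 2-fold at 1.23, Aldh1a1, which did not pass the filter, sits to the left, and 1 green point, a Stra6 probe set at -1.32, lies under the lower line.

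The other genes of the pathway were read from lists of retinoid genes grouped by role. Of 67 genes listed, 44 had a probe set on the array and 19 passed the filter, 8 of them higher and 11 lower in neurons from co-culture. None of the 19 was past 2-fold on its brightest probe set, while 0.314% of all 6368 genes above the filter were at least 2-fold higher and 0.628% at least 2-fold lower. The median log2 ratio of the 19 was -0.05, against -0.01 for all genes. Under scaling to the array medians, the medians were 0.04 for the 19 and 0.07 for all genes. This scaling adds the same amount to each log2 ratio for which both signals lie above the floor. Averaging the probe sets of each gene gave medians of -0.13 for the 19 and -0.03 for all genes. Under 5 ways of scaling the arrays, 5 of the 19 were higher each time and 8 lower each time. Signs turned under at least 1 of these scalings for Dgat1, Dhrs3, Med1, Ncoa1, Ncor1 and Rxrg.

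Among genes of retinoid binding and uptake, 8 of 10 listed were on the array and 2 passed the filter. Stra6, the receptor that takes up retinol from its plasma carrier, was measured by 4 probe sets, and neurons from co-culture had the lower signal on all 4. The brightest had an intensity of 188 in neurons from co-culture and 275 in neurons alone, a log2 ratio of -0.55. The others had 177 against 268 (-0.59), 80.9 against 202 (-1.32) and 89.3 against 127 (-0.50), again with neurons from co-culture first. These signals were close to or under the array medians, the last did not pass the filter, and the ratio of -1.32 was -0.76 with the floor at the 40th percentile. Probe sets of 1 gene share the RNA and may share sequence, so the 4 are not independent.

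Fabp5, a fatty acid binding protein that can also carry retinoic acid to the receptor PPARD, was bright in both arrays. It had 5734 in neurons from co-culture and 5164 in neurons alone, a log2 ratio of 0.15. Among the 6 members of this list below the filter was Crabp1, the close relative of Crabp2, named after its values were seen. It had 10.0 in neurons from co-culture and 91.5 in neurons alone, both under the array medians and the first under the floor of 39.6, so no fold is given. Ttr, the plasma carrier of the retinol binding protein, also named after its values were seen, had 58.1 in neurons from co-culture and 125 in neurons alone.

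Of 22 listed genes of retinol and retinal metabolism, 13 were on the array and 4 passed the filter, 2 higher and 2 lower. Dhrs4, a dehydrogenase that can reduce retinal, had 477 in neurons from co-culture and 370 in neurons alone, a log2 ratio of 0.37. Rdh11, a retinal reductase, had 325 in neurons from co-culture and 363 in neurons alone (-0.16). Dgat1, an acyltransferase that can make retinyl esters, had 432 in neurons from co-culture and 447 in neurons alone (-0.05). These ratios were small beside the 1.23 of Crabp2. Of the enzymes that break retinoic acid down, neither Cyp26a1 (42.6 in neurons from co-culture and 48.3 in neurons alone) nor Cyp26b1 (19.8 in neurons from co-culture and 7.75 in neurons alone) passed the filter. No fold is given for such dim signals.

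All 6 listed receptors were on the array, and the 4 that passed the filter were lower as deposited. Their median log2 ratio was -0.22 (-0.32 to -0.13 under the 5 scalings). Of all genes above the filter 52.7% were lower, with a median of -0.01. Rarb, retinoic acid receptor beta, had 208 in neurons from co-culture and 227 in neurons alone (-0.13). Rarg, retinoic acid receptor gamma, named after its values were seen, had 122 in neurons from co-culture and 186 in neurons alone (-0.61). It passed the filter through the array of neurons alone, where it lay just above the median. Ppard, the receptor that fatty acids and retinoic acid can activate, had 343 in neurons from co-culture and 423 in neurons alone (-0.30). Rxrg, retinoid X receptor gamma, had 205 in neurons from co-culture and 207 in neurons alone (-0.01). Its ratio was above 0 under 4 of the 5 scalings. Both other retinoid X receptor genes, named after their values were seen, were below the filter and differed in direction. Rxra had 63.3 in neurons from co-culture and 77.4 in neurons alone, and Rxrb had 119 in neurons from co-culture and 103 in neurons alone. Among receptor coregulators, 2 of the 4 above the filter were higher and 2 lower. Ncor1, a corepressor of receptors without ligand, had 509 in neurons from co-culture and 538 in neurons alone (-0.08). Its other probe set, also above the filter, was at -0.42. Med1, a subunit of the mediator complex, had 304 in neurons from co-culture and 299 in neurons alone (0.02). The other Med1 probe set, at 0.42, passed the filter only through the array of neurons from co-culture. The acetyltransferase gene Ep300 had 213 in neurons from co-culture and 245 in neurons alone (-0.20). Its other probe set, below the filter, was at -0.57.

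Genes known to be induced by retinoic acid in 1 or more cell types did not share a direction. Of 24 listed, 13 were on the array and 8 passed the filter, 4 higher and 4 lower, with a median log2 ratio of -0.03, against -0.01 for all genes. Under scaling to the array medians these were 0.06 for the list and 0.07 for all genes, and after quantile normalization 0.06 and 0.02. Averaging the probe sets of each gene gave -0.14 for the list and -0.03 for all genes. Egr1, an immediate early transcription factor, had 2746 in neurons from co-culture and 2382 in neurons alone (0.21). Ret, the receptor tyrosine kinase of GDNF family ligands, had 1005 in neurons from co-culture and 1089 in neurons alone (-0.12). Its other probe sets, also above the filter, were at -0.18 and -0.47. Gprc5a, an orphan receptor first known as a retinoic acid induced gene, had 519 in neurons from co-culture and 577 in neurons alone (-0.15). Rarb and Stra6, both on this list as well, were lower, as given above. The other members above the filter lay between 0.06 for Dhrs3 and 0.20 for Rarres2, a chemokine-like protein, with Tgm2, a transglutaminase, at 0.13. Rarres2 had 202 in neurons from co-culture and 176 in neurons alone. It passed the filter only through the array of neurons from co-culture, so the filter favoured its direction. The other Tgm2 probe set, below the filter, had 30.6 in neurons from co-culture, which is under the floor, and 100 in neurons alone. The mean over both probe sets of Tgm2 was -0.61, a value that rests on this floored signal.

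**Figure D3:**
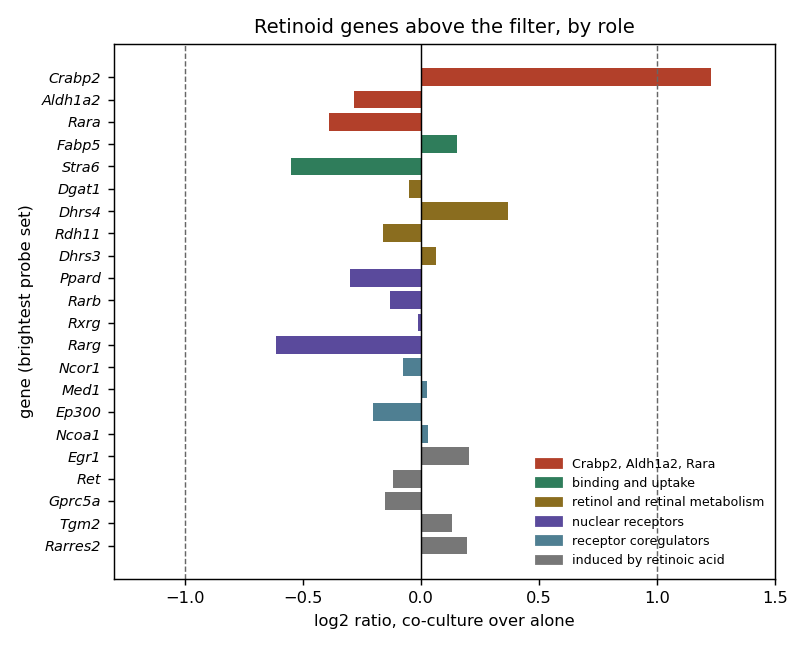
Log2 ratio of co-culture over alone for the brightest probe set of each retinoid gene above the filter, coloured by role, with a gene on several lists drawn once. Dashed lines mark 2-fold. Crabp2 alone passes 2-fold, and the nuclear receptor genes all lie at or below 0 as deposited, although Rxrg was above 0 under 4 of 5 scalings (-0.12 to 0.08).

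The genes whose pair of signals lay nearest to that of Crabp2 were Il33, Cxcl1 and Errfi1. Nearness was the distance between log2 intensities over the 2 arrays, and it was 0.04 for Il33, 0.06 for Cxcl1 and 0.26 for Errfi1. Il33, a nuclear interleukin, had 825 in neurons from co-culture and 346 in neurons alone. Cxcl1, a chemokine, had 847 in neurons from co-culture and 342 in neurons alone, and Errfi1, an inhibitor of the EGF receptor, had 695 in neurons from co-culture and 358 in neurons alone. With 2 arrays such likeness says only that the brightness was alike in each.

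Markers of other cell types differed between the arrays as well, and their part in the difference of Crabp2 was not tested. Of 14 fibroblast and smooth muscle markers, all above the filter, 11 were higher and 3 lower in neurons from co-culture. Their median log2 ratio was 0.20 (0.09 to 0.28 under the 5 scalings), their summed intensity was 55678 in neurons from co-culture and 51844 in neurons alone, and none was at 0. The brightest, the collagen gene Col1a1, had 10750 in neurons from co-culture and 9988 in neurons alone. These signals lay above 99.96% and 99.97% of the probe sets of their arrays, in the same order. Dcn, the matrix proteoglycan decorin, was the 1 member past 2-fold, with 652 in neurons from co-culture and 306 in neurons alone. Of all 6368 genes above the filter, 0.314% were at least 2-fold higher. The 3 lower members were Acta2 (2913 in neurons from co-culture and 4040 in neurons alone), Tagln (3500 and 4094) and Thy1 (1667 and 2018). Of 11 sympathetic neuron markers on the array, all 11 were lower, against 52.7% of all genes above the filter. Their median was -0.31 (-0.44 to -0.23 under the 5 scalings). Their summed intensity was 26703 in neurons from co-culture and 33395 in neurons alone. Each of the 11 lay above the array median in both conditions, so the labelled cell type was present in each array. In such bulk RNA, fewer cells of a type and less RNA per cell cannot be told apart.

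Of 11 cardiac myocyte markers on the array, 4 passed the filter, 3 higher and 1 lower, with a median of 0.33 (0.22 to 0.41 under the 5 scalings) and a summed intensity of 1637 in neurons from co-culture and 1171 in neurons alone. None was at 0, and the lowest, Ryr2, was at 4.46 in neurons from co-culture and 8.47 in neurons alone. Nppa, the atrial natriuretic peptide gene by which the study gauged myocyte carry-over, had 201 in neurons from co-culture and 178 in neurons alone. Other markers, named after their values were seen, differed more. Nppb, the B-type natriuretic peptide gene, had 309 in neurons from co-culture and 180 in neurons alone. Nppa and Nppb passed the filter only through the array of neurons from co-culture, where their signals were higher. The filter thus favoured their direction in the count and the median above. The brightest probe set of Myl2, the ventricular myosin light chain, had 134 in neurons from co-culture and 44.8 in neurons alone, and that of Myh6, the alpha myosin heavy chain, had 134 in neurons from co-culture and 74.3 in neurons alone. Both lay under the array medians, and the other probe set of each gene lay under the floor in both arrays. Pln, the phospholamban gene, was the 1 lower above the filter, with 279 in neurons from co-culture and 284 in neurons alone. Below the filter, Myl7, the atrial myosin light chain, had 31.0 in neurons from co-culture and 40.5 in neurons alone. The median of the cardiac markers depended on the processing: a filter at the 25th percentile gave 0.78, no filter gave 0.18, and averaging the probe sets of each gene gave 0.10. Of 7 Schwann and satellite glia markers on the array, 6 passed the filter, 4 higher and 2 lower, with a median of 0.10 that turned to -0.01 under scaling to the spiked controls. Their summed intensity was 6981 in neurons from co-culture and 6994 in neurons alone, and S100b was the highest by ratio (0.99). Of the 4 higher, Erbb3 had 231 in neurons from co-culture and 160 in neurons alone, and Gfap 182 and 169. Erbb3 and Gfap passed the filter only through the array of neurons from co-culture, so the filter favoured their direction. The 5 macrophage markers on the array summed to 1028 in neurons from co-culture and 1133 in neurons alone, and the 4 endothelial markers, all below the filter, to 204 in neurons from co-culture and 231 in neurons alone. None of the markers of these 3 cell types was at 0.

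The direction of Crabp2 and its place past 2-fold held under the alternatives that could move its ratio. It ran from 1.12 under scaling to the spiked controls to 1.32 under scaling to the array medians. Aldh1a2 lay between -0.39 and -0.20 and Rara between -0.50 and -0.30 under the same alternatives. These genes have 1 probe set each and signals above the floors. The floor at the 40th percentile, no floor and the rules for several probe sets therefore could not move them. Scaling to the spiked controls moved the median of all probe sets by -0.11 on the log2 scale, and the ratios of these genes moved with it.

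**Figure D4:**
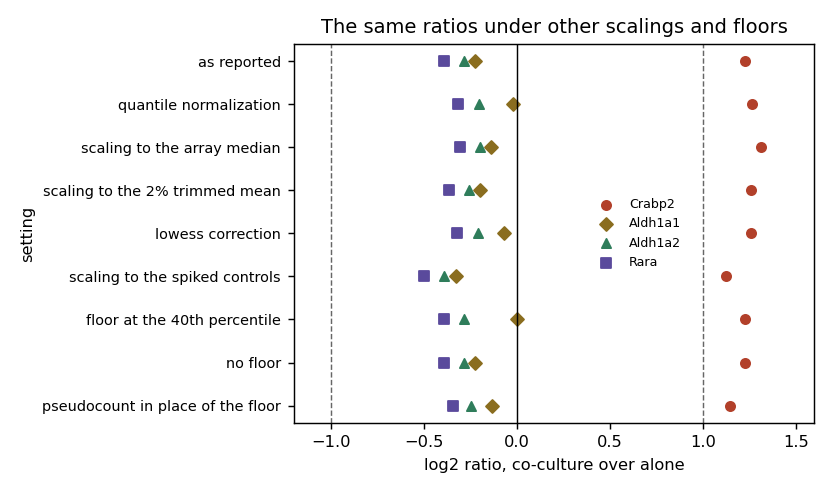
Log2 ratio of co-culture over alone for Crabp2, Aldh1a1, Aldh1a2 and Rara as reported (top line) and under 8 other ways of scaling the arrays or treating low values (lines below). Crabp2 stays between 1.12 and 1.32, past the dashed line of 2-fold, while Aldh1a1, next to the floor, reaches 0 with the floor at the 40th percentile. That floor and no floor could not move Crabp2, whose signals lie above the floors.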

How the data were processed

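The deposited intensities, 1 per probe set and array on a linear scale, were used as the authors gave them. The series' design text names dChip 1.3 for quantification, while MAS5 stands in the submitters' processing notes. The sources used here do not say which program produced the deposited intensity or how it was scaled. Array values carry no depth, and the number of arrays limits the precision.

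Groups follow the sample titles. A floor was set at the pooled 20th percentile (39.6), and the log2 ratio is that of co-culture over alone. A probe set passed the filter at or above its array's median (the 50th percentile) in at least 1 array. The brightest probe set stood for a gene. Of 15866 probe sets without the 57 controls, 12783 had 1 symbol, 312 several and 2771 none. Symbols were updated by gene identifier to RefSeq GRCr8, which was used for names and promoters. All 4 genes and Stra6 matched a promoter. No test was run, because each condition had 1 array. The calculations used Python 3.11.15 with pandas 2.3.3 and statsmodels 0.14.6, and were tested on simulated data.

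The genes, the lists and the alternatives were chosen with earlier results of these data known. The text names Crabp2, Aldh1a1, Aldh1a2 and Rara, other retinoid genes past 2-fold on their brightest probe set, the 3 brightest above the filter of each list, the 3 genes nearest to Crabp2, and Nppa, Th and Tubb3 as checks. Tubb3, the neuronal tubulin, had 3202 in neurons from co-culture and 3641 in neurons alone on its brightest probe set, and Th had 4575 in neurons from co-culture and 6175 in neurons alone. Other genes were named after their values were seen. Alternatives were quantile normalization, scaling to the median, to the 2% trimmed mean or to the spiked controls, lowess (span 0.3), a floor at the 40th percentile, none or a pseudocount, a filter at the 25th percentile or none, and other rules for several probe sets.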

Additional observations from a re-analysis of the deposited data

How the results depend on the processing

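The log2 ratios of Crabp2, Aldh1a1, Aldh1a2 and Rara moved by less than the SD of 1 probe set under each of 10 alternatives. Aldh1a1 ranged from -0.33 under scaling to the spiked controls to 0 with the floor at the 40th percentile. As reported, no other retinoid gene was past 2-fold on its brightest probe set. A filter at the 25th percentile or no filter, which add dim genes, gave 3 at least 2-fold lower (3 of 32 and 3 of 44). Of all genes, 1.34% of 8757 and 1.12% of 10411 were at least 2-fold lower under these filters. The 3 retinoid genes were Crabp1, Ttr and Rdh16 (25.2 in neurons from co-culture and 89.6 in neurons alone), named after their values were seen. Their signals in neurons from co-culture were low, and Crabp1 and Rdh16 were there under the floor, so both passed the lower filter only through the array of neurons alone. Of 8308 probe sets, 28 were at least 2-fold higher and 68 at least 2-fold lower. A pseudocount in place of the floor gave 17 higher and 43 lower, which its shrinking of low signals brings about. The filter at the 25th percentile gave 82 higher and 213 lower of 12338, and no filter 82 higher and 213 lower of 15866. Probe set signals near the array median, as for Stra6, Aldh1a2 and Rara, had the widest spread between probe sets of 1 gene. No paired analysis was possible because each condition had 1 array, and no replicate could be left out.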
